A study of Mus musculus with 5 samples.

Results

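The genes described here are 5 ligands and 3 receptors of the epidermal growth factor (EGF) family, namely Egf, Hbegf, Areg, Ereg and Tgfa and the receptors Egfr, Erbb3 and Erbb4. They were picked by symbol, as 8 of the 32285 genes in the deposited count matrix, and no limit on a measured value was used. The choice was made with earlier results of these data known. The series followed the left kidney of male C57BL/6J mice, 6 to 8 weeks old, after unilateral ischemia-reperfusion (UIR), in which the left renal pedicle was clamped for 35 min and the right kidney was kept. It sampled a Sham kidney and AKI kidneys at day 1, day 3, day 14 and day 28, with 1 sample per group and tissue of 3 mice in each sample, and its single-cell transcriptomes were read as 10x libraries. The deposited matrix holds 5 libraries told apart by a number at the end of each barcode, and no label ties a number to a condition. The cells of all libraries thus count as 1 sample, libraries are named by number only, no condition was compared with another, and no p-value is given for the comparisons between classes of cells. The study's methods describe the merging of more matrices than these 5 libraries, so whether a library is 1 mouse or 1 sample is not known. The labels name the cells as goblet cells, but the goblet cell genes Muc2, Tff3, Spdef, Clca1 and Fcgbp had 21, 15, 43, 2 and 41 UMIs in all kept cells together and 1 cell carried 2 or more of them, whereas the markers of nephron and immune cells were abundant.

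On the mouse build GRCm38 (mm10) the ligands lie as follows: Egf (ENSMUSG00000028017) at chr3:129677574-129755322, Hbegf (ENSMUSG00000024486) at chr18:36504927-36515805, Areg (ENSMUSG00000029378) at chr5:91139599-91148432, Ereg (ENSMUSG00000029377) at chr5:91074617-91093649 and Tgfa (ENSMUSG00000029999) at chr6:86195038-86275744, with Areg and Ereg on the same chromosome. The receptors are Egfr (ENSMUSG00000020122) at chr11:16752203-16913907, Erbb3 (ENSMUSG00000018166) at chr10:128567523-128589635 and Erbb4 (ENSMUSG00000062209) at chr1:68031884-69108576.

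EGF family ligands are made as membrane-anchored precursors that proteases such as ADAM17 release, and they act on neighbouring cells by binding Egfr or Erbb4. Erbb3 and Erbb4 bind neuregulins, Erbb3 has little kinase activity of its own, and the receptors signal as pairs, in large part through the Ras and ERK kinases. In the healthy kidney Egf is known as a product of the thick ascending limb and the distal convoluted tubule, where it acts on the magnesium channel Trpm6. Hbegf, Areg and Tgfa are known as ligands of injured epithelium, and lasting Egfr activity after tubule injury is linked with fibrosis.

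Of the 8 genes, 5 had a promoter in the RefSeq table used (build GRCm38.p6). The 250 bases before the start of Egf and of Areg are printed because these ligands were found in different cells, Egf in the distal nephron and Areg in T cells, urothelium, myeloid cells and injured tubule. Egf lies on the minus strand and its window is chr3:129755323-129755572, before the farther upstream of its 2 starts in the table, and Areg lies on the plus strand with its window at chr5:91139349-91139598. Capitals mark, in order, the cAMP response element TGACGTCA, the GC box GGGCGG and the TATA box TATAAA, all read 5′ to 3′ on the gene's strand.
Egf: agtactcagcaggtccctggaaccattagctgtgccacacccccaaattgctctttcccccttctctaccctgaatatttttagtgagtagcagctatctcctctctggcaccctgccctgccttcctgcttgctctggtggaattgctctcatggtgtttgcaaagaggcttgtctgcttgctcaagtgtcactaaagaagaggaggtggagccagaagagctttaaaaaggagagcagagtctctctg
Areg: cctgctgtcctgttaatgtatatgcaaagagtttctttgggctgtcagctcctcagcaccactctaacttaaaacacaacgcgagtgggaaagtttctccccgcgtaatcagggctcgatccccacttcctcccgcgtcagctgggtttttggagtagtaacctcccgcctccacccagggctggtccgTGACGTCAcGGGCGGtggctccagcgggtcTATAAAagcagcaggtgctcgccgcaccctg

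In the Areg window the element TGACGTCA lay 61 to 54 bases before the start, GGGCGG 52 to 47 bases and TATAAA 31 to 26 bases before it, with no overlap. On either strand these letters occur in 1.55%, 32.7% and 12.4% of the 32851 promoter windows of the same length, and the AP-1 letters TGANTCA, which neither printed window holds, occur in 6.75%. The Egf window held none of these 4 motifs. These matches describe letters and not binding.

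After calling and filtering, 57511 cells were kept, with a median of 4624 UMIs (unique molecular identifiers, 1 per captured transcript) and 1699 genes. The libraries held 8248 to 18892 kept cells with medians of 4038 to 5338.5 UMIs, and 350 barcode sequences occurred in more than 1 library. Cells were put in 20 classes by the share of their UMIs on marker lists that hold none of the 8 genes, and a class is called -like since it is a range set by markers. Library 3 stood apart: 15.8% of its cells passed no gate, against 1.28% to 6.69% in the others, and its estimated share of free RNA in immune cells was 26.1%, against 8.48% to 14.9%. Levels are UMIs of a gene per 1000000 UMIs of a class (CPM), with 95% exact Poisson intervals, and differences are log2 ratios of CPM with 95% exact binomial intervals. Both intervals cover counting error only and leave out the spread between cells and between mice, so for the members of the family the values of separate libraries are given beside the main ratios.

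**Figure D1:**
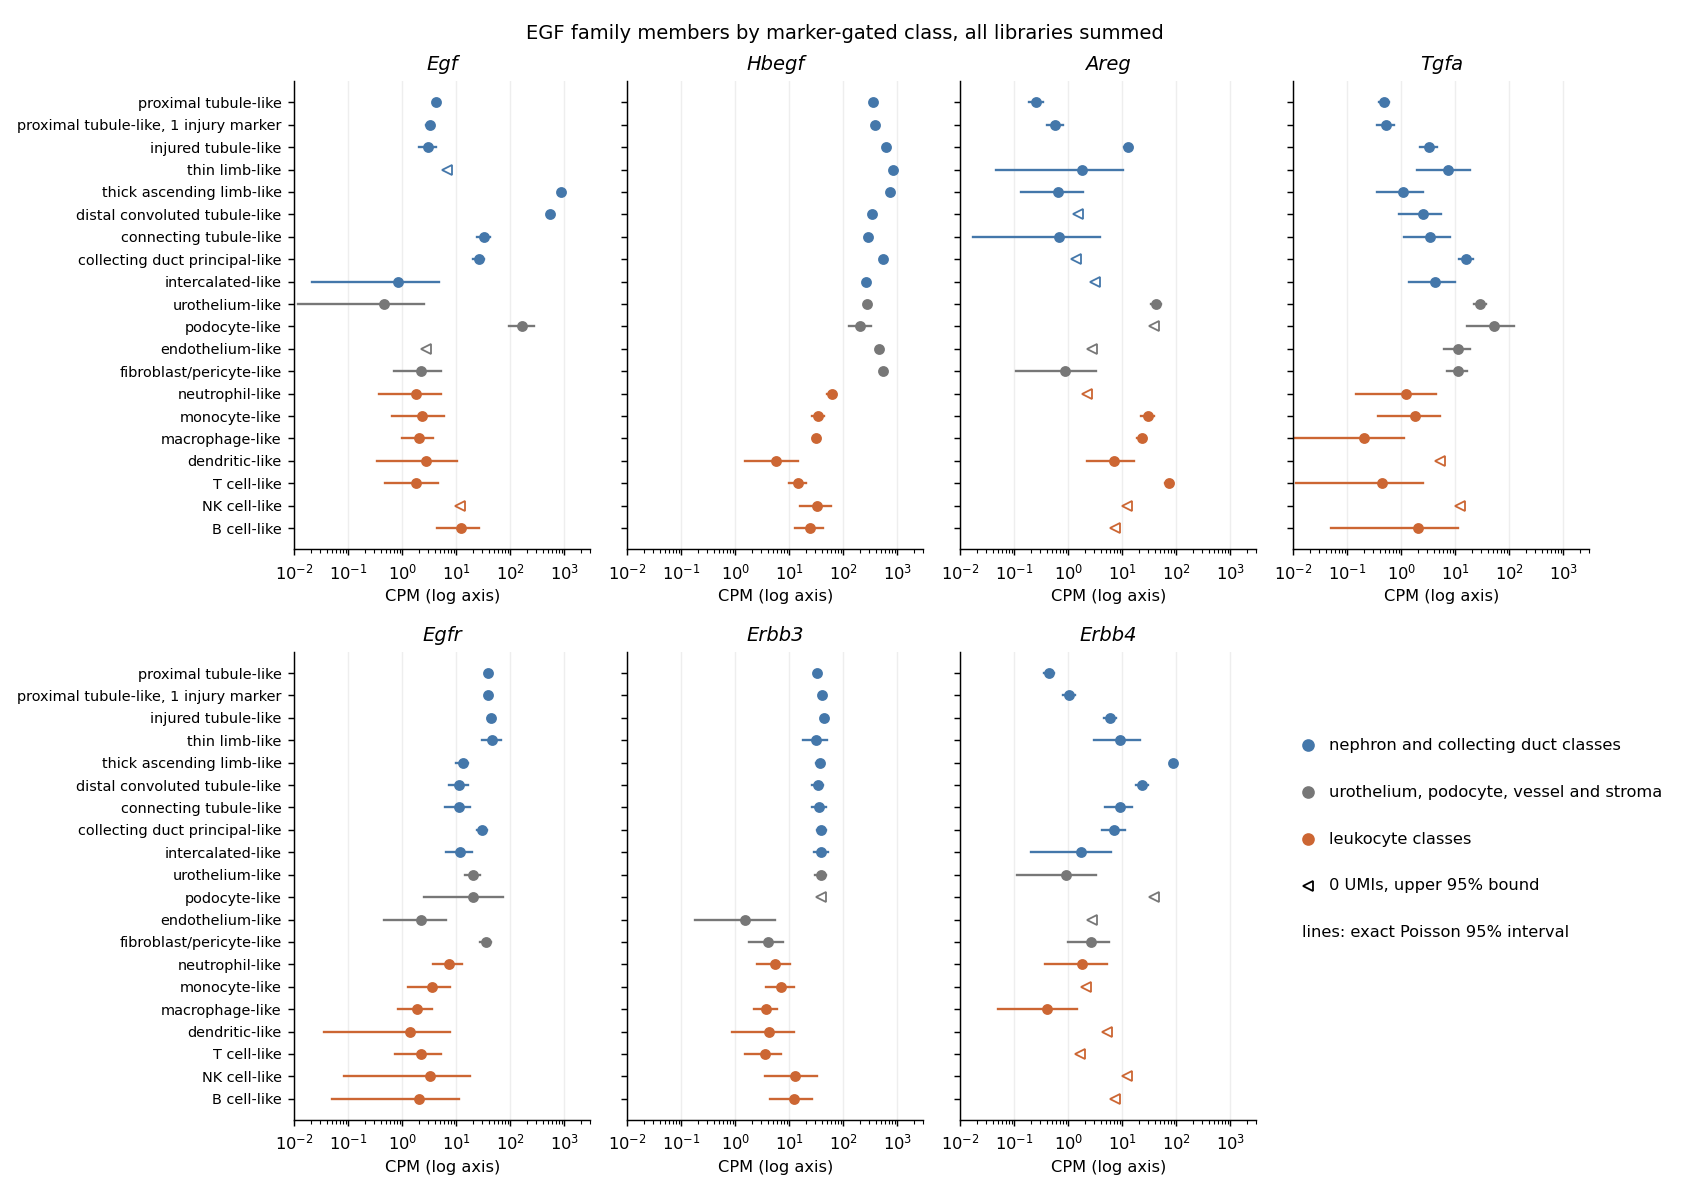
Level of 7 of the 8 genes (1 panel each, Ereg left out) in each class of cells, all libraries summed, as CPM on a log axis. Points are levels, lines are 95% exact Poisson intervals and open triangles are the upper ends of those intervals where 0 UMIs were found. The class marked with 1 injury marker holds proximal cells with at least 1 UMI on such a marker that missed the injured tubule gate. Egf and Erbb4 peak in thick ascending limb-like and distal convoluted tubule-like cells, Areg in T cell-like and urothelium-like cells of the pooled libraries, and Erbb3 stays at 31.0 to 43.7 CPM in all tubule classes.

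Egf was concentrated in 2 segments of the nephron. Thick ascending limb-like (TAL-like) cells held 4051 of its 7524 UMIs, 53.8%, with 1.44% of all UMIs, at 877.6 CPM (851 to 905). Distal convoluted tubule-like (DCT-like) cells, the next segment along the tubule, stood at 549 CPM (520 to 579). At least 1 Egf UMI was seen in 41.1% of the 747 TAL-like cells and in 56.4% of the 397 DCT-like cells. The same share was 1.99% in proximal tubule-like cells and 0.368% in T cell-like cells, which are not known to make Egf and have a lower median depth (1705 UMIs against 5000 in TAL-like cells). Cells of at least 1000 UMIs were then thinned to 1000. Shallower cells were left out, namely 59 TAL-like, 28 DCT-like, 4703 proximal tubule-like and 84 T cell-like cells. The shares after thinning were 25.1% in TAL-like, 32.5% in DCT-like, 0.433% in proximal tubule-like and 0.399% in T cell-like cells, so the proximal and T cell shares lay close together.

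The remaining classes held little Egf. Connecting tubule-like cells had 32.2 CPM on 47 UMIs, with 4.60 to 212 CPM over the 4 libraries with at least 20 such cells. Principal-like cells of the collecting duct had 26.1 CPM, but 66 of the 70 UMIs in principal-like cells came from 1 cell. Podocyte-like cells had 165 CPM on 16 UMIs in 75 cells with a median of 818 UMIs, the shallowest class described here apart from the erythroid cells. After thinning, an Egf UMI was left in 4 of 27 podocyte-like cells, 14.8% (4.19 to 33.7), with 48 shallower cells left out. The same share was 3.66% (1.49 to 7.41) in connecting tubule-like cells. Proximal tubule-like cells had 4.17 CPM, with 9.39 CPM in library 5 and 2.60 CPM in the other libraries summed. The immune classes lay between 0 and 12.1 CPM. Free RNA, read from barcodes too small to be cells, held 4.25 to 80.8 CPM of Egf, above the proximal tubule-like level of the same library in each of the 5.

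The Egf level of TAL-like cells differed between the libraries far more than counting error. It was 1042 CPM in library 1, 1780 in library 2, 53.4 in library 3, 627 in library 4 and 5419 in library 5. Library 3 was thus lowest and library 5 highest, and the intervals of the 5 libraries did not overlap. The DCT-like level gave the same order over the libraries with at least 20 such cells, with 405 CPM in library 1, 672 in library 2, 47.8 in library 3 and 1261 in library 5. The share of TAL-like cells with an Egf UMI went from 19.6% in library 3 to 98.8% in library 5. Against the other libraries, TAL-like Egf in library 3 was lower by a log2 ratio of -5.16 (-5.42 to -4.91) and in library 5 higher by 3.30 (3.21 to 3.39), where 9.6% and 17.8% of all genes measured passed 2-fold in either direction.

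The same count was made for all 8 genes, each library against the other 4. In TAL-like cells, where 5 of the 8 had enough UMIs, 1 passed 2-fold in library 1 (Egfr, on 4 UMIs), 1 in library 2 (Egf), 1 in library 3 (Egf), 2 in library 4 (Hbegf, and Egfr on 1 UMI) and 3 in library 5 (Egf, Hbegf and Erbb4). Over all genes these shares were 10.1%, 7.25%, 9.6%, 13.4% and 17.8%. In proximal tubule-like cells, where 7 of the 8 had enough, 1 passed in library 1 (Areg, on 4 UMIs), 0 in libraries 2 and 3, 4 in library 4 (Egf, Areg, Tgfa and Erbb4, all lower and on 1 to 53 UMIs) and 2 in library 5 (Egf and Tgfa, both higher). Over all genes these shares were 11.4%, 5.47%, 14%, 5.88% and 11.3%.

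Genes that served as markers of the gates, which limits how low they can be in a cell that passed, differed between the libraries too. Umod, which encodes uromodulin and defines the thick ascending limb, was at 9482 CPM in library 3 and between 12044 and 17189 CPM in the others. Slc12a1, the sodium-potassium-chloride cotransporter of the same segment, was at 425 CPM in library 3 and between 2389 and 5330 CPM in the others. In DCT-like cells the marker Pvalb, a calcium-binding protein, was likewise lowest in library 3 and highest in library 5, at 222, 190 and 26.3 CPM in libraries 1, 2 and 3 and 1069 CPM in library 5. Library 3 held 423 of the 747 TAL-like cells, and the TAL-like cells of library 5 had a median of 18.5% mitochondrial UMIs against 6.83% to 11.9% elsewhere. In the TAL-like cells of at most 10% mitochondrial UMIs, Egf was at 466 CPM in library 1, 664 in library 2, 56.1 in library 3 and 444 in library 4, where the intervals of libraries 1 and 4 overlap, and library 5 had fewer than 20 such cells. Library 3 thus stayed lowest, and libraries 1, 2 and 4 stood below their levels over all cells. Free RNA held 23.8, 32.7, 4.25, 8.88 and 80.8 CPM of Egf in libraries 1 to 5. Its part in the level of each library was not tested, and library and condition cannot be told apart.

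**Figure D2:**
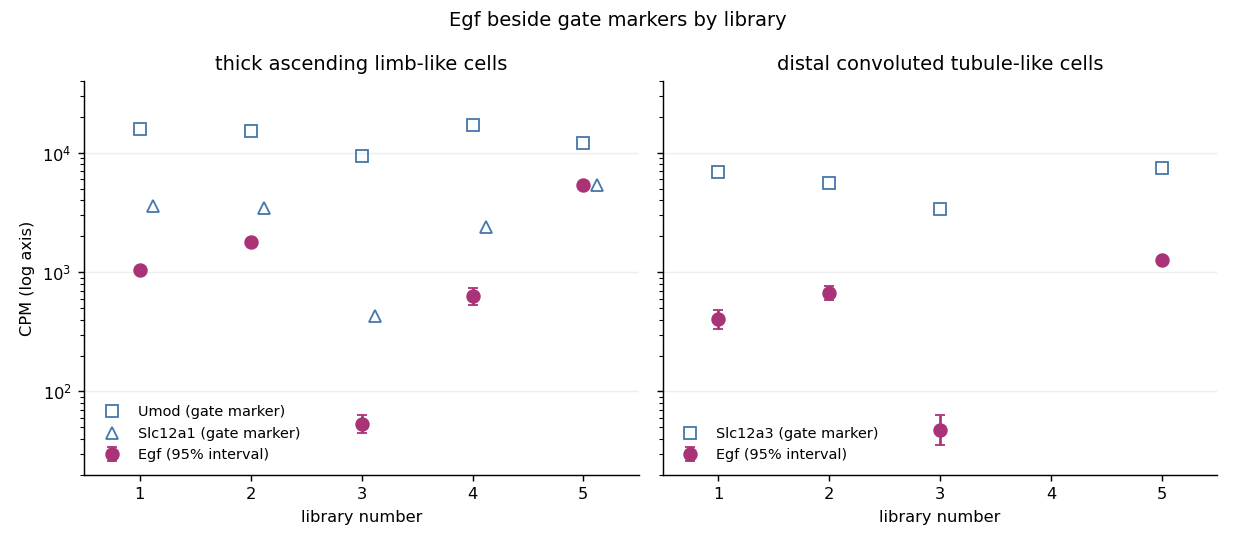
Egf level with its 95% counting interval (filled circles) beside the gate markers Umod, Slc12a1 and Slc12a3 (open symbols, those of Slc12a1 moved slightly to the right), as CPM on a log axis against library number. In thick ascending limb-like cells (left) Egf is lowest in library 3 at 53.4 CPM and highest in library 5 at 5419 CPM, in distal convoluted tubule-like cells (right) lowest at 47.8 and highest at 1261 CPM in the same libraries, and Umod spans 9482 to 17189 CPM.

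Between the 2 segments that make Egf, the pooled TAL-like level was higher than the DCT-like level by a log2 ratio of 0.68 (0.59 to 0.77), short of 2-fold. Within libraries 1, 2, 3 and 5 the ratio was 1.36, 1.41, 0.16 and 2.10, so it was above 0 in 4 of 4 libraries and past 2-fold in 3 of them. With equal weight for each library, over the 5 with at least 20 TAL-like and the 4 with at least 20 DCT-like cells, it was 1.58. Over the 4 with at least 20 of both, a choice made after the values had been seen, it was 1.80 as a ratio of mean levels and 1.26 as a mean of log2 ratios. Without library 3 it was 1.06, without library 5 it was 1.24, and without libraries 1 and 2 in turn it was 0.57 and 0.44. With cells of at most 10% mitochondrial UMIs the direction turned, to -0.50, on 378 CPM in 333 TAL-like cells and 535 CPM in 131 DCT-like cells. Library 3 was the 1 library with at least 20 cells of both at this limit. Its TAL-like cells had 56.1 CPM (43.8 to 70.8) and its DCT-like cells 44.2 CPM (21.2 to 81.3) on 10 UMIs, so neither direction was shown within it. That limit left fewer than 20 TAL-like cells of library 5 but 67 of its DCT-like cells, at 1120 CPM against 1261 CPM over all its DCT-like cells. The mix of libraries thus changed, and the TAL-like levels of libraries 1, 2 and 4 were lower at this limit too, as given above. Which of these changes lay behind the turn was not tested. Of the 8 genes, 5 had the 50 UMIs in the 2 classes together that a ratio required, and 2 were at least 2-fold higher in TAL-like cells, Hbegf and Erbb4, while 0 were 2-fold lower. Over all genes 4.58% were 2-fold higher and 3.6% lower, and the median ratio was 0.68 for the 5 genes against -0.01. For Hbegf the pooled ratio of 1.06 hid a spread from 0.12 in library 2 and 0.72 in library 3 to 1.21 in library 5 and 1.33 in library 1. Without library 5, left out after the values had been seen, it was 0.70 and short of 2-fold.

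Hbegf, a ligand that binds heparin and acts on Egfr and Erbb4, was the opposite of Egf in its breadth. It was seen in all classes plotted, with 114296 UMIs in 24347 cells, and 59.0% of its UMIs came from proximal tubule-like cells, which hold 60.8% of all UMIs. Levels were highest in thin limb-like cells at 837.5 CPM (50 cells, 59.5% of the UMIs in 5 of them), TAL-like cells at 716 CPM and injured tubule-like cells at 612 CPM. Principal-like cells at 546 CPM and fibroblast/pericyte-like cells at 539.9 CPM could not be told apart by counting error, and endothelium-like cells followed at 451 CPM. Proximal tubule-like cells at 347 CPM and DCT-like cells at 344 CPM were also within counting error of each other. The leukocyte classes lay far lower, from 5.57 CPM in dendritic-like to 61.2 CPM in neutrophil-like cells, and free RNA held 53.7 to 135 CPM.

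Hbegf and Egf had different orders over the libraries. The TAL-like Hbegf level was 709 CPM in library 1, 719 in library 2, 723 in library 3, 1423 in library 4 and 157 in library 5. Library 5, with the highest Egf, therefore had the lowest Hbegf, and library 3, with the lowest Egf, lay within 0.03 of the other 4 libraries summed, on the log2 scale. In DCT-like cells Hbegf was likewise lowest in library 5, at 68.1 CPM, and stood at 281, 659.6 and 438 CPM in libraries 1, 2 and 3. In proximal tubule-like cells the range was narrower, from 304 CPM in library 2 to 479 CPM in library 4.

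**Figure D3:**
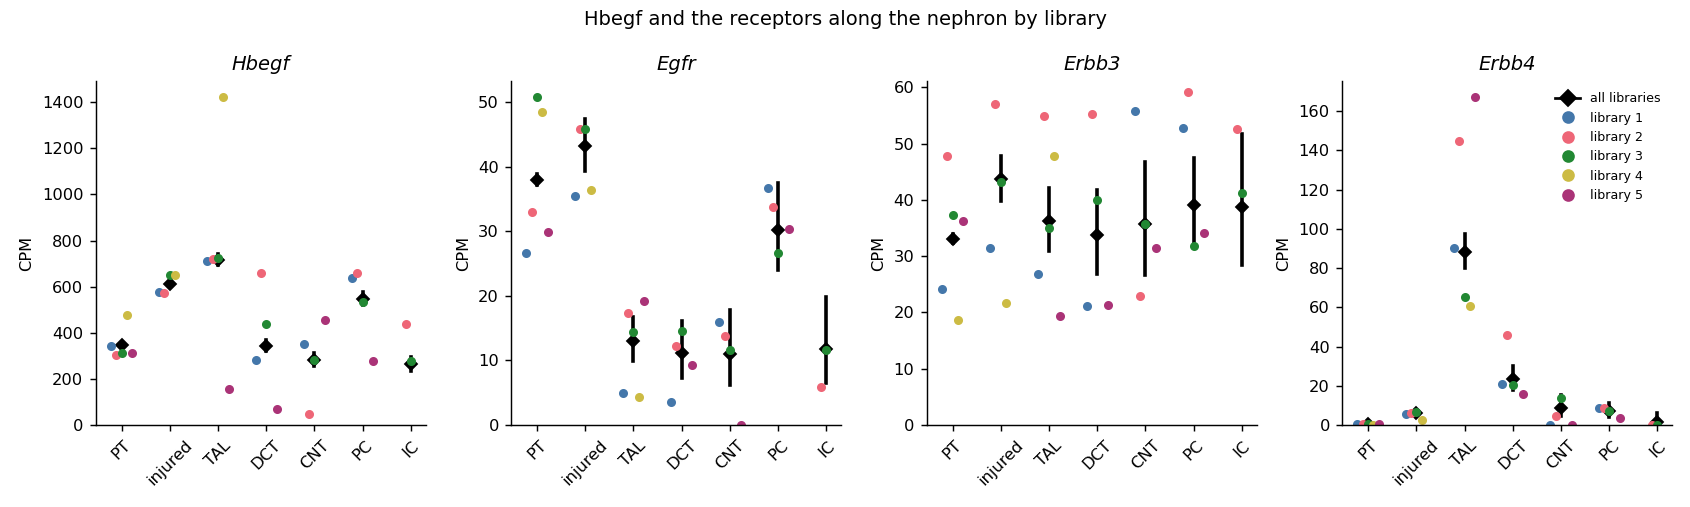
Levels of Hbegf, Egfr, Erbb3 and Erbb4 (CPM, linear axes from 0) in proximal tubule-like (PT), injured tubule-like, TAL-like, DCT-like, connecting tubule-like (CNT), principal-like (PC) and intercalated-like (IC) cells. Diamonds with lines are all libraries with 95% counting intervals and coloured points are libraries with at least 20 cells of the class. Hbegf in TAL-like cells is lowest in library 5 at 157 CPM, Erbb4 is highest there at 167 CPM, and the Erbb3 points of every class spread more widely than the pooled levels of the classes differ.

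Injured tubule-like cells were compared with proximal tubule-like cells that carry no injury marker. They numbered 1129 and had at least 2 of the 6 injury markers Havcr1, Krt20, Sox9, Vcam1, Dcdc2a and Akap12 at 4 or more UMIs per 10000. A further 6975 proximal cells had a UMI on at least 1 of these markers without meeting both limits, and they were left out. In this comparison 7 of the 8 genes had enough UMIs, 3 of them, Areg, Tgfa and Erbb4, were at least 2-fold higher in injured tubule-like cells, and 0 were 2-fold lower. Over all genes measured 16.8% were 2-fold higher and 6.02% lower, with a median ratio of 0.22 against 0.82 for the 7 genes. Markers of intact proximal tubule took 44.9 UMIs per 10000 in the injured class and 118 in the class it was set against. They took 72.9 in the 612 injured cells that also passed the proximal tubule gate. In the 517 that did not they took 15.5, where neutrophil-like cells had 13.1, so the tubule identity of these 517 rests on the injury markers alone. Library 5 had 9 injured tubule-like cells and gives no ratio of its own.

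Hbegf was higher in injured tubule-like cells by a log2 ratio of 0.82 (0.78 to 0.85), which is below 2-fold. Within libraries 1 to 4 the ratio was 0.76, 0.91, 1.06 and 0.44, so the direction was the same in 4 of 4 libraries. Of the injured tubule-like cells, 612 also passed the proximal tubule gate, at 579 CPM, and 517 did not, at 645.5 CPM. In library 1 the cells that passed it stood at 340.1 CPM, within counting error of the proximal level of 340.8 CPM, and those that did not stood at 758 CPM. In libraries 2, 3 and 4 the cells that passed it stood at 515, 683 and 705 CPM, above proximal levels of 304, 311 and 479 CPM. Taking the mean over cells in place of the sum gave 1.05, just past 2-fold. The proximal cells with an injury marker that were left out of this comparison lay between, at 384 CPM. After thinning, 35.03% of injured tubule-like cells and 20.6% of proximal tubule-like cells had an Hbegf UMI, against 1.50% of T cell-like cells. By the injury marker present, Hbegf stood at 627 CPM in cells with Havcr1 and no Vcam1, 566 CPM with Vcam1 and no Havcr1 and 552 CPM with both. The libraries disagreed on this order, since the levels, in the same sequence of markers, were 375, 491 and 735 CPM in library 1, 509.8, 582 and 577 CPM in library 2 and 632, 729 and 424 CPM in library 3.

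Areg, which encodes amphiregulin, showed the largest ratio of the 7 genes compared here, 5.64 (5.16 to 6.14), on 134 UMIs at 12.9 CPM in injured tubule-like cells and 50 UMIs at 0.26 CPM in the others. In the separate libraries the injured level was 8.20, 25.4, 3.11 and 17.3 CPM in libraries 1 to 4, and the ratio was 6.12, 5.92, 2.96 and 7.32. Of the 134 UMIs, 87 came from injured cells that did not pass the proximal tubule gate, at 17.1 CPM against 8.80 CPM in those that did, and in library 1 all 12 lay there, with 0 UMIs in the 84 cells that passed. Few cells carried it: 48 of 1129 had an Areg UMI, 5 of them held 49.3% of the UMIs and 1 held 32. Library 2 supplied 89 of the 134 UMIs, and without it the ratio was 4.88, while without library 3 it was 6.48. It was 6.78 with doubled gate limits and 6.40 after free RNA was subtracted. Cells with both Havcr1 and Vcam1, the kidney injury molecule and an adhesion molecule, stood at 25.7 CPM (19.9 to 32.7), on 67 UMIs of which 1 cell of library 2 held 32, those with Havcr1 alone at 12.6 CPM (9.49 to 16.5) and those with Vcam1 alone at 5.10 CPM (2.55 to 9.13). Within libraries, cells with both and cells with Havcr1 alone could not be ordered. The cells with Havcr1 alone stood at 32.8, 33.2 and 32.05 CPM in libraries 1, 2 and 4, the last on 17 UMIs in 2 cells. In library 3, which held 361 of these 517 cells, they stood at 3.41 CPM. The cells with both stood at 15.2 and 37.4 CPM in libraries 1 and 2, with intervals that overlap those of Havcr1 alone. In library 3 they had 0 UMIs in 26 cells, which at a floor of 3 counts allows up to 10.2 CPM. Free RNA held 0 to 2.02 CPM of Areg.

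**Figure D4:**
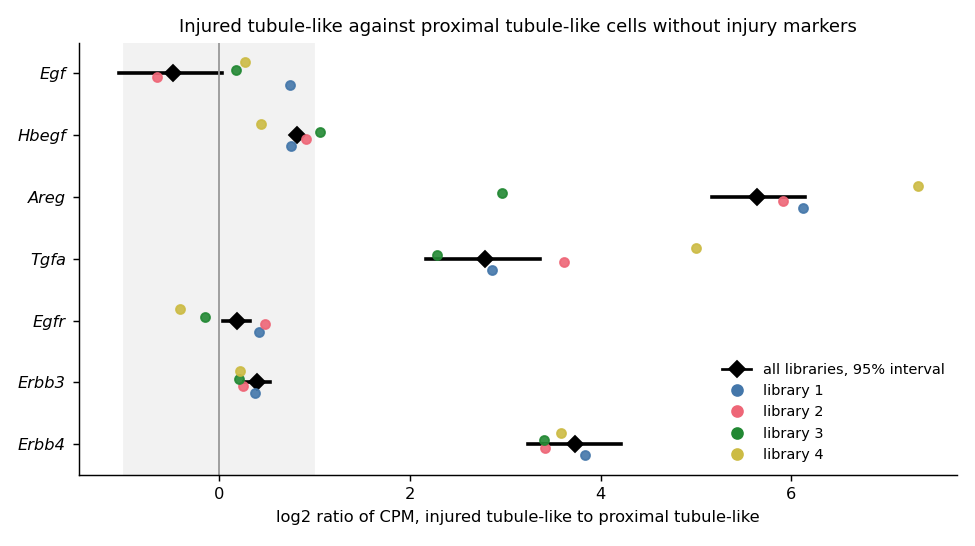
Log2 ratio of CPM in injured tubule-like to proximal tubule-like cells for the 7 genes that could be compared. Diamonds with lines are all libraries with 95% counting intervals, coloured points are libraries 1 to 4, and the grey band marks ratios below 2-fold. Areg, Erbb4 and Tgfa lie past 2-fold at 5.64, 3.73 and 2.78, and Hbegf at 0.82 lies inside the band.

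Tgfa, which encodes transforming growth factor alpha, was higher in injured tubule-like cells by 2.78 (2.17 to 3.37), on 34 UMIs at 3.26 CPM against 92 UMIs at 0.47 CPM. Within libraries 1 to 4 the ratio was 2.86, 3.61, 2.28 and 5.00, the last on 1 UMI in each class. Injured cells that passed the proximal tubule gate held 10 of the 34 UMIs at 1.87 CPM, with 0 in library 3, and those that did not stood at 4.72 CPM. It was 4.00 with a mitochondrial limit of 10% and 3.94 with doubled gate limits. Unlike Areg, Tgfa was highest in injured cells with Vcam1 and no Havcr1, at 8.81 CPM (5.30 to 13.8), and stood at 0.70 CPM (0.14 to 2.05) in those with Havcr1 and no Vcam1. By library the first level was 6.08, 11.3 and 9.78 CPM in libraries 1, 2 and 3 and the second was 0, 0 and 1.02 CPM. In library 1 the 0 UMIs came from 22 cells and at a floor of 3 counts allow up to 14.1 CPM, so the 2 levels could not be told apart there. In proximal tubule-like cells it was higher in the S3 part, the straight end of the proximal tubule, at 1.15 CPM than in the S1 part, its first stretch, at 0.15 CPM, with 34 of the 56 UMIs of the S3 part in library 5.

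Summed over libraries, Areg was highest in T cell-like cells, at 73.2 CPM on 164 UMIs in 57 of 1087 cells. By library this level was 57.1, 107, 16.3, 14.9 and 301 CPM, where the value of library 5 rests on 13 UMIs in 1 of its 20 cells. The pooled rank was not kept by level in each library. Urothelium-like cells stood higher in libraries 2 and 3, monocyte-like cells, at 39.2 CPM, in library 3, and injured tubule-like cells, at 17.3 CPM on 20 UMIs in 3 cells, in library 4. In each of these cases the counting interval overlapped that of T cell-like cells, so the change of rank is not beyond counting error. The T cell-like cells that carried markers of regulatory T cells or type 2 innate lymphoid cells, such as Foxp3, Il2ra and Gata3, held 94 of the 164 UMIs in 186 cells and stood at 198 CPM (160 to 243), with an Areg UMI in 19.4% of them and 152 and 252 CPM in libraries 1 and 2. The other 901 T cell-like cells stood at 39.6 CPM (30.9 to 50.1), with 30.6, 52.8, 0 and 16.4 CPM in libraries 1 to 4 and 13 of their 70 UMIs in the 1 cell of library 5. Cells with Cd4 or Cd8 were counted across both of these groups. Those with Cd4 stood at 136 CPM, with 141, 185 and 0 CPM in libraries 1, 2 and 3, the last from 20 cells. In the 322 T cell-like cells with Cd8, 0 UMIs were found. At a floor of 3 counts these 0 UMIs allow up to 59.9 CPM in the Cd4 cells of library 3 and 3.80 CPM in the Cd8 cells. Regulatory T cells are known as a source of amphiregulin in tissue repair.

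Urothelium-like cells, which line the renal pelvis, had 42.6 CPM of Areg, with 23.7, 136 and 33.1 CPM in libraries 1, 2 and 3. Library 3 held 138 of the 196 urothelium-like cells. Monocyte-like and macrophage-like cells followed at 29.9 and 22.8 CPM and were within counting error of each other. Their libraries differed: 50 of the 51 monocyte-like UMIs came from library 3 and 72.5% from 5 cells, whereas the macrophage-like level was 44.7 CPM in library 2 and 19.05, 2.53, 0 and 25.3 CPM in libraries 1, 3, 4 and 5. Neutrophil-like, NK cell-like, B cell-like and endothelium-like cells had 0 Areg UMIs, which at the same floor allows up to 1.80, 9.70, 6.04 and 2.22 CPM. Cells with 2 or more basophil or mast cell markers numbered 4 and had 0 Areg UMIs. Cells that passed no gate held 220 of the 909 Areg UMIs, 24.2%, at 14.2 CPM, so the account by class is incomplete for this gene.

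**Figure D5:**
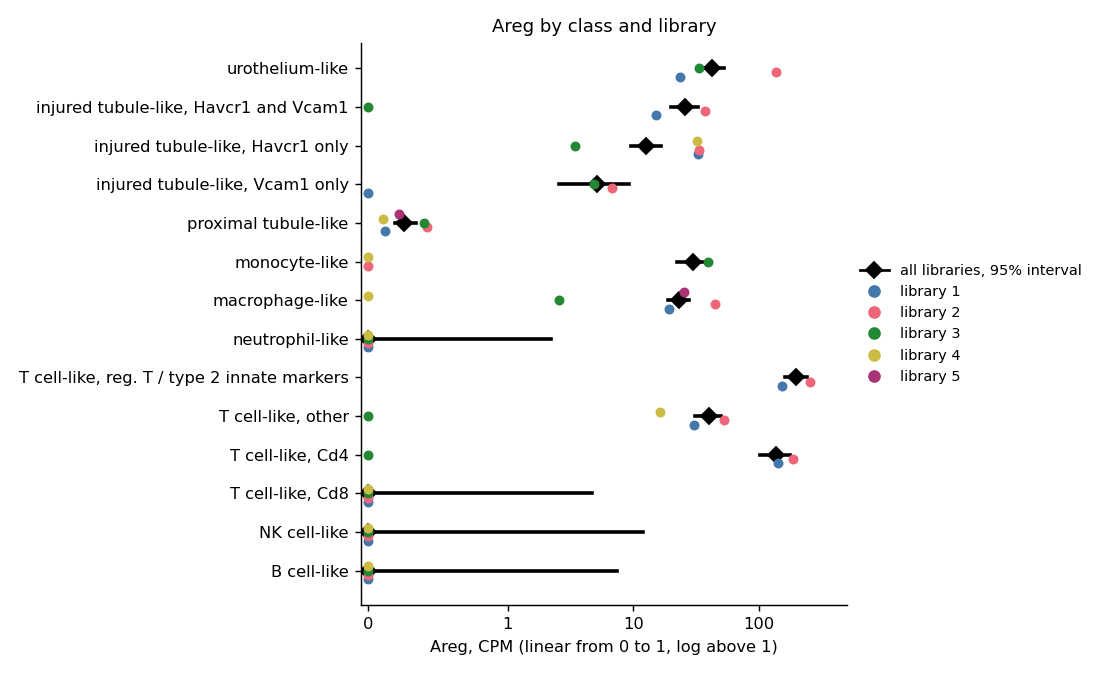
Areg level (CPM, linear up to 1 and log above) in classes and parts of classes, pooled over libraries with 95% counting intervals (diamonds) and by library where it had at least 20 such cells (coloured points). T cell-like cells with regulatory T or type 2 innate lymphoid markers lie highest at 198 CPM, urothelium-like cells at 42.6 CPM, and T cell-like cells with Cd8 have 0 UMIs in each library shown.

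Against all tubule classes together, myeloid classes had a log2 ratio for Areg of 4.53 (4.24 to 4.83), with 5.31, 3.88, 4.54 and 6.46 in libraries 1, 2, 3 and 5, the last on 2 UMIs. In library 4 the 366 myeloid cells had 0 Areg UMIs, which at a floor of 3 counts allows up to 2.13 CPM, where tubule cells had 0.57 CPM. Areg was the 1 gene of 7 at least 2-fold higher in myeloid classes, and 5 were lower, namely Egf (-3.48), Hbegf (-3.40), Egfr (-3.59), Erbb3 (-2.91) and Erbb4 (-2.21). Over all genes 18.4% were higher and 33.2% lower, with a median of -0.37 against -2.91 for the 7 genes. Comparisons of 3 more classes with the same tubule cells were chosen after their levels had been seen. Areg was higher in T cell-like cells by 6.51 (6.21 to 6.80), with 7.17, 5.76, 4.40, 4.71 and 10.6 in libraries 1 to 5, as 1 of 7 genes higher and 4 lower where 19.9% and 28.3% of all genes were. It was higher in urothelium-like cells by 5.72 (5.36 to 6.08), with 5.90, 6.11 and 5.42 in libraries 1, 2 and 3. There Tgfa was also higher by 5.13 (4.70 to 5.54), with 4.60, 5.63 and 4.60 in the same libraries, as 2 of 7 genes higher and 2 lower where 21% and 18.3% of all genes were. In fibroblast/pericyte-like cells Tgfa was higher by 3.76 (3.10 to 4.36), with 3.52 and 3.71 in libraries 1 and 2 and 0 UMIs in the 29 such cells of library 3, as 1 of 7 genes higher and 2 lower where 31.7% and 14.2% of all genes were.

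Tgfa was a rare transcript, with 426 UMIs in 373 cells. After podocyte-like cells, at 51.5 CPM on 5 UMIs (16.7 to 120), it was highest in urothelium-like cells at 28.4 CPM (21.8 to 36.4), with 23.7, 43.9 and 22.9 CPM in libraries 1, 2 and 3. Principal-like cells had 16.03 CPM, with 19.1, 14.1, 15.5 and 7.60 CPM in libraries 1, 2, 3 and 5, and endothelium-like and fibroblast/pericyte-like cells had 11.09 and 11.02 CPM. Neighbours among the last 3 of these classes did not differ beyond counting error. Leukocyte classes held between 0 and 3 Tgfa UMIs each, and free RNA held 0.16 to 6.06 CPM.

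Ereg, which encodes epiregulin, a ligand known from myeloid cells and injured epithelium, was nearly absent from the counts. Its 10 UMIs came from 3 cells, of which 1 fibroblast/pericyte-like cell of library 2 had 1 UMI, 1 thin limb-like cell of library 3 with 81937 UMIs in all had 5, and 1 cell of library 3 without a class had 4. In the 2731 myeloid cells 0 UMIs were found, which at a floor of 3 counts allows up to 0.33 CPM. No ratio was formed, since both groups lay at or near the floor.

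Egfr, the receptor shared by all 5 ligands, had most of its UMIs in proximal tubule-like cells, not far above their share of all UMIs. Of its 11125 UMIs, 66.4% came from proximal tubule-like cells, which hold 60.8% of all UMIs and stood at 38.0 CPM, and by library at 26.6, 32.9, 50.7, 48.5 and 29.95 CPM. Injured tubule-like cells stood at 43.2 CPM and thin limb-like cells at 45.6 CPM. Fibroblast/pericyte-like cells at 34.8 CPM were within counting error of proximal tubule-like cells, at a log2 ratio of 0.13 (-0.19 to 0.46) for proximal over fibroblast/pericyte-like cells. They were also within counting error of principal-like cells at 30.2 CPM. TAL-like, DCT-like, connecting tubule-like and intercalated-like cells lay between 10.96 and 12.998 CPM and could not be ordered. Endothelium-like cells had 2.22 CPM and leukocyte classes 1.39 to 7.20 CPM, where free RNA held 7.10 to 53.6 CPM.

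Against the distal and collecting duct classes, proximal tubule-like cells had more Egfr by a log2 ratio of 1.25 (1.04 to 1.46), with 0.66, 0.86, 1.66, 2.20 and 1.04 in libraries 1 to 5. The direction was the same in 5 of 5 libraries and the ratio was past 2-fold in 3 of them. Within the proximal tubule the S1 part had 48.0 CPM (46.1 to 49.9) and the S3 part 29.7 CPM (28.2 to 31.3), but the separate libraries differed: S1 was higher in libraries 1, 2 and 5, at 34.4, 47.7 and 45.3 CPM against 27.2, 27.2 and 28.0 CPM, while in libraries 3 and 4 the S3 part stood at 76.6 CPM (50.04 to 112) and 53.8 CPM (46.3 to 62.2) and the S1 part at 50.9 CPM (47.6 to 54.3) and 52.1 CPM (48.1 to 56.2), with overlapping intervals and the first of these on 26 UMIs. Principal-like cells had more Egfr than TAL-like cells by a log2 ratio of 1.22 (0.72 to 1.72) in a comparison chosen after the levels had been seen, and 2.91, 0.96, 0.89 and 0.66 in libraries 1, 2, 3 and 5. The value of library 1 rests on 4 TAL-like UMIs, and without that library the ratio was 0.92 and short of 2-fold. In this comparison over all libraries 1 of the 5 genes compared was higher and 2, Egf and Erbb4, were lower, where 8.35% and 4.47% of all genes were. In injured tubule-like cells Egfr was within 0.18 (0.04 to 0.32) of the proximal level, and the separate libraries had 0.42, 0.48, -0.15 and -0.41, so the direction differed between libraries. Injured cells that passed the proximal tubule gate stood at 46.8 CPM, with 33.1, 42.5, 62.2 and 35.1 CPM in libraries 1 to 4. Those that did not stood at 39.4 CPM, with 37.4, 50.3, 32.5 and 39.3 CPM. In library 3 the proximal level of 50.7 CPM thus lay between the levels of these parts.

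Erbb3, a receptor for neuregulins, was found in all tubule classes. All tubule classes lay between 31.0 CPM in thin limb-like and 43.7 CPM in injured tubule-like cells, and urothelium-like cells had 38.0 CPM. None of the neighbours in the order from injured tubule-like down to thin limb-like cells differed beyond counting error. Outside epithelium the level was 3.97 CPM in fibroblast/pericyte-like and 1.48 CPM in endothelium-like cells. Leukocyte classes had 3.57 to 12.9 CPM where free RNA held 4.94 to 19.9 CPM. Podocyte-like cells had 0 UMIs. At the floor of counts used above this allows up to 30.9 CPM, close to the lowest tubule level, so a lower level in podocyte-like cells was not shown. Distal and collecting duct classes against proximal tubule-like cells gave a ratio of 0.14 (-0.00 to 0.28), and the libraries gave 0.61, 0.11, -0.05, 0.69 and -0.58, in both directions. Injured tubule-like cells had more Erbb3 than proximal tubule-like cells by 0.40 (0.26 to 0.54), short of 2-fold, with 0.38, 0.25, 0.21 and 0.22 in libraries 1 to 4. The injured cells that passed the proximal tubule gate stood at 56.5 CPM and those that did not at 30.1 CPM, against 33.1 CPM in proximal tubule-like cells. The proximal level itself went from 18.6 CPM in library 4 to 47.8 CPM in library 2.

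Erbb4, which binds neuregulins and also Hbegf, shared the segments of Egf. TAL-like cells held 407 of its 922 UMIs at 88.2 CPM (79.8 to 97.2), and DCT-like cells stood at 23.4 CPM (17.7 to 30.3). By library the TAL-like level was 90.5, 145, 65.1, 60.9 and 167 CPM and the DCT-like level in libraries 1, 2, 3 and 5 was 21.1, 46.0, 20.5 and 16.03 CPM. Thin limb-like, connecting tubule-like, principal-like and injured tubule-like cells followed at 9.12, 8.91, 7.08 and 5.95 CPM and could not be ordered, and proximal tubule-like cells had 0.45 CPM. T cell-like, NK cell-like, B cell-like, dendritic-like, monocyte-like, endothelium-like and podocyte-like cells had 0 UMIs. At a floor of 3 counts this allows up to 1.34, 9.70, 6.04, 4.18, 1.76, 2.22 and 30.9 CPM, the last above the DCT-like level. Of the 307 TAL-like cells with an Egf UMI, 126 also had an Erbb4 UMI, and these were 41.0% of the Egf cells and 50.8% of the 248 Erbb4 cells, where Erbb4 was seen in 33.2% and Egf in 41.1% of all TAL-like cells. Of the 224 DCT-like cells with an Egf UMI, 24 also had an Erbb4 UMI, which were 10.7% of the Egf cells and 53.3% of the 45 Erbb4 cells, where Erbb4 was seen in 11.3% and Egf in 56.4% of all DCT-like cells. Differences in depth between cells and differences between libraries were not removed from these shares. In TAL-like cells Egf was seen in 19.6% of the cells of library 3 and 98.8% of those of library 5. Erbb4 was seen in 29.1% and 39.5% of the same cells, and in 54.3% of those of library 2.

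The distal and collecting duct classes had more Erbb4 than proximal tubule-like cells by a log2 ratio of 6.49 (6.16 to 6.83), with 6.75, 6.84, 5.78, 6.97 and 6.59 in libraries 1 to 5. It was 7.40 after subtraction of free RNA, 7.44 after thinning and 5.80 as a mean over cells. In this comparison 3 of the 7 genes, Egf at 6.74, Erbb4 and Tgfa at 3.45, were at least 2-fold higher in the distal classes and 1, Egfr, was lower, where 24% and 15.6% of all genes were, and the median was 0.56 against 0.26 over all genes. By library the Egf ratio was 7.36, 8.04, 3.39, 7.37 and 7.46 and the Tgfa ratio 4.197, 3.76, 3.19, 8.12 and 1.07, the fourth of these on 1 proximal UMI. TAL-like against DCT-like cells differed by 1.91 (1.51 to 2.34), with 2.10, 1.65, 1.67 and 3.38 in libraries 1, 2, 3 and 5. Erbb4 was also higher in injured tubule-like cells, by 3.73 (3.24 to 4.22) on 62 UMIs against 87, with 3.83, 3.42, 3.41 and 3.59 in libraries 1 to 4. Of those 62 UMIs, 47 came from injured cells that did not pass the proximal tubule gate, at 9.25 CPM against 2.81 CPM in those that did. Markers of the thick ascending limb took 3.11 UMIs per 10000 in the whole injured class and 3.02 in the proximal class. This share was not taken for the cells that failed the gate alone, nor for DCT markers, and an origin of these UMIs in distal cells was not tested.

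The other genes of the pathway were taken from lists set by their role, drawn up with earlier results of these data known, so the counts are a description. Their ratios are pooled over libraries, and values by library or by the proximal tubule gate are not given for them. In injured tubule-like cells 6 of 7 response genes, which are known to follow receptor and ERK activity, were at least 2-fold higher and 0 lower, with a median ratio of 3.03 against 0.22 over all genes, of which 16.8% were 2-fold higher and 6.02% lower. These were Fosl1 at 6.37, Emp1 at 4.29, Phlda1 at 3.88, Ier3 at 3.03, Egr1 at 1.55 and Myc at 1.36, and most of them respond to other stimuli too. A high median of this list was not particular to injured cells, since it was 4.12 in the distal and collecting duct classes against the same proximal cells. Against all tubule classes it was 3.20 in fibroblast/pericyte-like, 1.77 in urothelium-like and -0.78 in T cell-like cells and 1.19 in myeloid classes. Of the 14 feedback inhibitors of the receptors, 3 were higher and 0 lower, namely Spry1 at 2.53, Spry2 at 2.23 and the ERK phosphatase Dusp5 at 1.09. Of 14 adaptors and kinases, 2 were higher, Nras at 1.20 and Mapk3 at 1.04, and of the 5 shedding enzymes and partners 1 was, Rhbdf2 at 1.96, which helps ADAM17 reach the cell surface. Among 3 further ligands with enough UMIs only Nrg1, a neuregulin, was higher, by 1.33, and Erbb2, the receptor without a ligand of its own, differed by 0.41. Trpm6 was higher by 4.61, at 10.1 CPM against 0.41 CPM.

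The distal and collecting duct classes were set against proximal tubule-like cells over the same lists, where 24% of all genes were 2-fold higher and 15.6% lower. Betacellulin (Btc), another Egfr ligand, was higher by 3.34 and stood at 80.5 CPM in principal-like cells, whereas Nrg1 and Nrg4 were lower, by -1.29 and -1.89. Erbb2 was higher by 1.31 and Adam17, the main shedding enzyme, by 1.03. Of the 14 feedback inhibitors 3 were higher, Spry2 at 3.54, Spry1 at 2.42 and, smallest of the 7, Cbl at 1.18, and 4 were lower, Errfi1 at -2.25, Spry4 at -1.86, Lrig3 at -1.50 and Lrig1 at -1.48. The response genes had 6 of 8 higher and 1 lower, with Etv4 at 7.32, Emp1 at 5.69, Fosl1 at 4.84, Phlda1 at 4.58, Ier3 at 3.67 and Egr1 at 2.26 and with Myc the lower gene at -1.51. Among the adaptors and kinases Mapk3 was higher at 1.36, Grb2 at 1.25, Nras at 1.15 and Map2k1 at 1.07. Trpm6, the magnesium channel that Egf acts on, stood at 148 CPM in DCT-like and 8.02 CPM in TAL-like cells, a log2 ratio of -4.21 for TAL-like against DCT-like cells. In that comparison 1 of 11 feedback inhibitors (Spry1 at 1.32) and 1 of 5 response genes (Emp1 at 3.84) were higher, and 0 of either list were lower, where 4.58% and 3.6% of all genes were.

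Myeloid classes held few receptor UMIs, and of the 5 shedding enzymes and partners 2 were at least 2-fold higher than in the tubule classes and 1 was lower. Of all genes 18.4% were 2-fold higher and 33.2% lower than in the tubule classes. Against these Adam17 was higher by 2.19 and Rhbdf2 by 1.60, Rhbdf1 was lower by -2.71, and Erbb2 was lower by -2.998. Btc, Nrg1 and Nrg4 were 3 of 3 lower, at -3.84, -1.78 and -1.75. Of the 14 feedback inhibitors 3 were higher and 8 were lower, led by Spry4 at -3.43, Lrig3 at -3.35, Errfi1 at -3.19, Lrig1 at -2.80, Dusp4 at -2.21 and Spry1 at -1.998. Of the 8 response genes 4 were higher, Emp1 at 2.95, Phlda1 at 2.87, Ier3 at 2.43 and Fosl1 at 1.55, and Myc was lower at -2.13. Among the adaptors and kinases Grb2 at 2.58, Mapk3 at 1.76 and Map2k1 at 1.22 were higher and Gab1 was lower at -1.26.

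The genes whose levels most resembled each member were found over 72 sums of a class in a library, by Pearson's correlation of log2(CPM + 1), as a description only since the sums of a library share its depth and free RNA. For Egf these were Gpx6 (0.81), 4930461G14Rik (0.80) and Fads6 (0.78), and 4930461G14Rik (0.81) also stood near Erbb4, with Stk32b (0.82) and Ppp1r1b (0.81). For Hbegf they were Syne2 (0.88), Fermt2 (0.87) and Tsc22d1 (0.86), and for Tgfa they were Tspan15 (0.81), Ptpn14 (0.79) and Lamb2 (0.77). Egfr was nearest to Tead1 (0.87), Pax8 (0.86) and Cldn12 (0.85), and Erbb3 to Tmem184a (0.83), Hspa9 (0.83) and Elovl7 (0.81). Areg had the weakest partners, Crybg2 (0.67), Ulbp1 (0.61) and Hmmr (0.58), and Ereg had too few UMIs to be ranked.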

How the data were processed

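Single-cell RNA-seq of whole mouse kidney was deposited by the authors as 1 raw 10x matrix of UMI counts, made per the labels with Cell Ranger 6.0 on mm10. From it cells were called in each library by an EmptyDrops-type test in Python against barcodes of rank 45000 to 90000 (10000 simulations, adjusted p at most 0.01, at least 500 UMIs), and called cells with under 200 genes (510) or over 25% mitochondrial UMIs (12143) were dropped, 57511 of 70164 remaining. Doublets were left in, except that cells passing the gates of several lineages (2000) form no class. Each gate needed 2 markers and 6 to 60 UMIs per 10000 (injured tubule 4). Counts were summed per class (numpy 2.4.6, scipy 1.17.1, pandas 2.3.3), and a ratio needed 50 UMIs in both classes together. All 8 members are named, as are pathway genes past 2-fold (the 6 largest per list and comparison, and where 1 more passed, that gene, added after its value was seen) and the 3 most alike genes per member. The members, lists and markers were chosen with earlier results of these data known. Intervals treat UMIs as independent. The ratio and calling steps were tested on simulated data, and 11 alternatives were run for each of 8 results. Of the adaptor and kinase list, 1 gene is not reported here.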

Additional observations from a re-analysis of the deposited data

How the results depend on the processing

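The limits are those of 1 pooled sample: no test between mice or conditions was made, Ereg gave no ratio under any alternative, and Areg, Tgfa and Erbb4 rest on 50, 92 and 87 UMIs in proximal tubule-like cells. No paired analysis was possible because the barcodes carry neither the group nor the replicate number of the labels. This bars pairs of labelled groups only: classes of cells share a library, and a test paired by library was not run, their ratios within libraries being given in its place. All values here are log2 ratios. The ratio of Egf in TAL-like to DCT-like cells (0.68) reversed to -0.50 with a mitochondrial limit of 10%, and was 0.88 with doubled gate limits, 0.87 after thinning to 1000 UMIs, 0.83 as a mean over cells, 1.58 with equal weight of libraries and 1.80 with equal weight of the 4 libraries with at least 20 cells of both classes, which was added after the data were seen. For injured against proximal tubule-like cells, Hbegf (0.82) was 0.88 without the ambient test, 0.57 with the 10% limit, 0.87 with doubled gates, 0.86 without the highest doublet scores, 0.86 after free RNA was subtracted, 0.98 after thinning and 1.05 as a mean over cells. Areg (5.64) was 6.78 with doubled gates and 6.40 after free RNA was subtracted, and Tgfa (2.78) was 4.00 with the 10% limit and 3.94 with doubled gates. Egfr in proximal against distal classes (1.25) was 1.51 after free RNA was subtracted and 1.49 as a mean over cells. In distal classes against proximal, Erbb3 (0.14) was 0.44 after thinning and -0.051 as a mean over cells, and Erbb4 (6.49) was 7.40 after free RNA was subtracted, 7.44 after thinning and 5.80 as a mean over cells. Leaving out 1 library at a time gave 0.44 to 1.24 for Egf, 0.71 to 0.94 for Hbegf, 4.88 to 6.48 for Areg, 2.25 to 3.22 for Tgfa, 1.11 to 1.35 for Egfr, 0.013 to 0.25 for Erbb3 and 6.35 to 6.87 for Erbb4. Hbegf in TAL-like against DCT-like cells (1.06), added after the data were seen, was 0.70 to 1.36, and Egfr in principal-like against TAL-like cells (1.22), also added, was 0.92 to 1.55. The cause of these shifts was not tested.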
